A study of Caenorhabditis elegans with 2 samples.

Results

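MicroRNA (miRNA) genes were examined for occupancy by RPC-1, which forms the largest part of the RNA polymerase III core, in whole Caenorhabditis elegans. The members were all 260 genes with the biotype miRNA in the RefSeq annotation of WBcel235 (ce11), out of 46890 nuclear genes and pseudogenes. A gene was called bound when the summit of a peak in the deposited IDR list lay within 250 bp of its body. IDR, the irreproducible discovery rate, measures how well peak ranks repeat between replicates. Bound genes were split by whether that summit also lay within 500 bp of a tRNA gene, a tRNA pseudogene or a snoRNA gene (listed as near) or did not (listed as apart).

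The study held 1 group of 2 samples, biological replicates 1 and 3. Both were young adult hermaphrodites, of unknown age, of strain JK1107, which carries glp-1(q224) on chromosome III, and both expressed RPC-1 from a transgene with a GFP-FLAG tag at its C-terminus. Chromatin was precipitated with an antibody against GFP, after shearing with a Bioruptor in replicate 1 and by another sonication method, a microtip, in replicate 3, so shearing and replicate cannot be told apart. Both samples came from the same line. Tissues of whole animals were mixed, the promoter that drives the transgene is not stated, and no untagged or wild type group was compared. Whether the animals held germline or embryos was not examined. The IDR list held 1860 peaks, with signals of 54.3 to 24700 and a median of 213.2. The pooled list and the list of replicate 3 held 30000 peaks each, and that of replicate 1 held 29914. Signal is the value the authors gave each peak, and a rank is a peak's place within its list by signal. The lists carry no read counts, so the depth of the samples is unknown.

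MiRNAs are short RNAs cut from hairpin precursors by the nuclear enzyme Drosha and then by Dicer. Argonaute proteins carry them to messenger RNAs, which they recognise mainly through the seed, bases 2 to 8 of the mature miRNA. Most animal miRNA genes are read by RNA polymerase II, either on their own or within introns of a host gene, while RNA polymerase III reads tRNA genes and other short RNA genes. The internal promoter of a tRNA gene consists of an A-box followed by a B-box, which are bound by the factor TFIIIC, and RNA polymerase III stops at runs of T.

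These 4 sequences are shown because they hold every exact match to the B-box letters within 250 bp of a bound miRNA gene. The match lies inside the miRNA gene at mir-4937 alone. The B-box letters, GGTTCGANNCC, were those shared by at least 80% of the 441 nuclear tRNA genes that hold the core of this element. Each line gives WBcel235 sequence on the strand of the match, 5′ to 3′, with exact B-box matches in capitals and, for mir-4936 and mir-4937, the A-box match upstream of it in capitals too. The stretches are III:3249213-3249308 on the plus strand, IV:1381717-1381812 on the minus strand, IV:11026124-11026176 on the minus strand and X:15236163-15236215 on the plus strand. The one for mir-1829.3 comes from the neighbouring valine tRNA gene and not from the miRNA gene.
mir-4936: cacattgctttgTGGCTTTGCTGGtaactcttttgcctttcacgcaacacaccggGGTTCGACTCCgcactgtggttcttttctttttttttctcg
mir-4937: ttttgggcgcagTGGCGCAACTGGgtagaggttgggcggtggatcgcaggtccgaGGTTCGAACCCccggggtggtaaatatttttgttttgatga
mir-51: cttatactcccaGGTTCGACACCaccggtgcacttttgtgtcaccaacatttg
mir-1829.3: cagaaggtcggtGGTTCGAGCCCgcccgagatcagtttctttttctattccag

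RPC-1 peaks were present at 14 of the 260 miRNA genes (5.38%; 95% Clopper-Pearson interval 2.97 to 8.87%, counting error only). The share over all nuclear genes was 5.16% (2419 of 46890), so the miRNA genes lay near the background. That background mixes classes of unlike length, among them 15363 piRNA genes (median 21 bp) and 19971 protein-coding genes (median 2006 bp). The median length of the miRNA genes was 95.5 bp. By the same rule 565 of 612 nuclear tRNA genes were bound (92.3%), as were 85 of 346 snoRNA genes (24.6%) and 27 of 209 tRNA pseudogenes (12.9%). Among ncRNA genes within the length range of the miRNA genes, 52 to 1732 bp, 7.68% were bound, and among piRNA genes, which encode small RNAs of the germline, 0.228%. The 14 genes shared 12 distinct peaks, because mir-55, mir-56 and F09A5.15 lie at a single peak.

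Of the 14 bound genes, 2 were near a tRNA gene and none was near a snoRNA gene or a tRNA pseudogene. The other 12 were apart, with 10 distinct peaks, and made up 4.62% of all miRNA genes (interval 2.41 to 7.92%). The same rule called 2.11% of the nuclear genes of classes other than the 3 used to split the list (967 of 45723). No test was made of that difference. The 45723 genes include the piRNA genes, and the miRNA members share peaks. From their summits, the nearest gene of these 3 classes lay 3832 bp away for mir-4937 and 100730 bp away for mir-4813, the nearest and the farthest of the 12.

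Signals of the apart genes fell into a high pair and a low remainder. They ran from 56.28 to 4970 with a median of 146, against 1419 and 1863 at the near genes. With the peak shared by mir-55, mir-56 and F09A5.15 counted once, the apart median was 162.7. The 565 bound tRNA genes had a median of 2911, with quartiles of 1808 and 4170. Thus 2 of the 12 apart genes, mir-2214 and mir-4936, reached the lower quartile of the tRNA genes, and the other 10 lay between 56.28 and 260.7. All 10 were below the tRNA quartile, and the lowest of them was close to 54.3, the lowest signal in the IDR list.

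**Figure D1:**
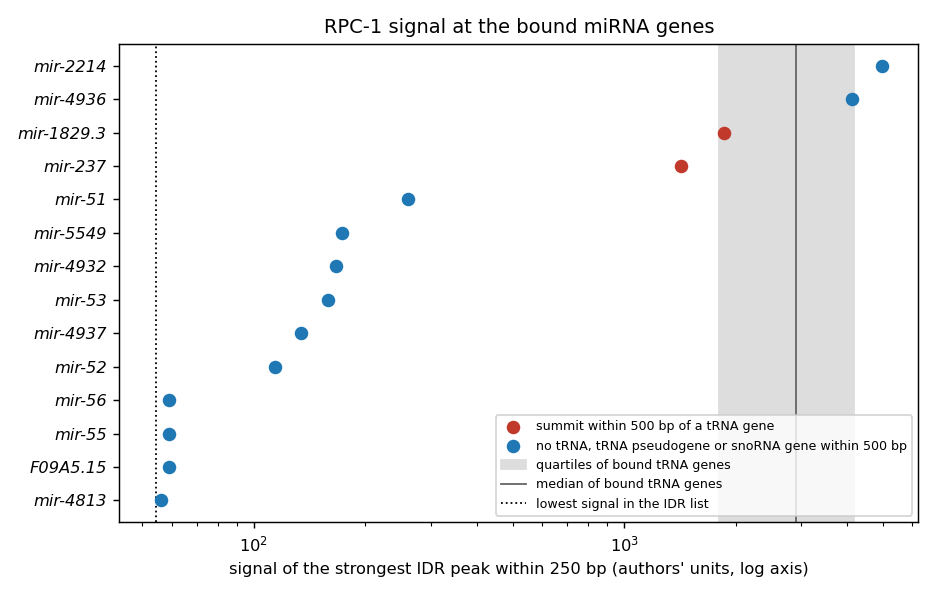
Signal of the strongest IDR peak within 250 bp of each bound miRNA gene (log axis, authors' units), with the genes in order of signal; red marks the near genes and blue the apart genes, the grey band spans the tRNA quartiles of 1808 and 4170, the line marks their median and the dotted line the lowest IDR signal. The points of mir-2214, mir-4936 and mir-1829.3 lie at or above the lower edge of the band, and 10 blue points lie far to its left.

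The strongest peak lay at mir-2214 (III, 7278715 to 7278778, plus strand), in an intron of the protein-coding gene B0361.11 on the same strand. Its IDR signal was 4970 (rank 114), with the summit inside the miRNA gene and a peak 776 bp wide. In replicate 1 the signal there was 3981 (rank 122), and in replicate 3 it was 1194 (rank 55), with summits 4 and 3 bp from the IDR summit. The peak was thus among the strongest in both samples. An ncRNA gene of unstated function, B0361.13, lies 211 bp from the summit on the opposite strand, and which of the genes the peak belongs to was not tested. No B-box match was found within 250 bp of mir-2214. Its annotated arms are shown with seeds in capitals, and neither seed occurs in another annotated mature miRNA.
mir-2214 5′ arm: aUUCGGUCcggagucaauggg
mir-2214 3′ arm: cAUUGACAacaacuugaccggcguu

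The other peak at tRNA height lay at mir-4936 (III, 3249151 to 3249260, plus strand), outside protein-coding genes. Its IDR signal was 4123 (rank 190), and the summit lay inside the hairpin gene. The signals were 3470 in replicate 1 (rank 185) and 655.1 in replicate 3 (rank 303), with summits 0 and 6 bp from the IDR summit. The exact B-box match shown above begins 27 bp from the summit and 8 bp beyond the 3′ end of the annotated gene, on its strand. The A-box match, with 1 mismatch, is separated from the B-box by 31 bases and lies at 3249225 to 3249236, inside the mature miRNA at 3249218 to 3249238. A run of T follows the B-box in the printed stretch, as it also does in those of mir-4937, mir-51 and mir-1829.3. The mature sequence has the seed in capitals.
mir-4936: uGCUUUGUggcuuugcuggua

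The gene mir-4937 (IV, 1381705 to 1381814, minus strand), also outside protein-coding genes, carried both elements inside the annotated hairpin. Its A-box matched without a mismatch, with 31 bases between it and an exact B-box, and the IDR summit fell within the A-box match. The signal was 133.7 (rank 1062), far under that of mir-4936, which has the same spacing. The replicates gave 104.6 (rank 1043) in replicate 1 and 26.41 (rank 1181) in replicate 3. It was the only one of the 260 miRNA genes with a B-box match in its body. The nearest gene of the 3 RNA classes was a tRNA pseudogene, Y104H12A.t2, 3832 bp from the summit.
mir-4937: cUGGGUAGagguugggcggugga

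The 2 near genes had summits closer to a tRNA gene than to the miRNA gene. At mir-1829.3 (X, 15236362 to 15236423, minus strand, in an intron of piki-1, which encodes a phosphoinositide 3-kinase, on the same strand), the summit lay 152 bp from the miRNA gene and 14 bp from the valine tRNA gene F39B1.t1. The signal was 1863 (rank 509), with 1640 (rank 480) in replicate 1 and 347.1 (rank 546) in replicate 3. The exact B-box in this window lies inside F39B1.t1, 25 bp from the summit.

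At mir-237 (X, 8154084 to 8154182, plus strand), the summit lay exactly 250 bp downstream of the miRNA gene, at the limit of the rule, and 13 bp from the serine tRNA gene F22F1.t2. The signal was 1419 (rank 582), with 682.4 (rank 676) in replicate 1. The list of replicate 3 had no summit within 250 bp of the IDR summit. Its peak of signal 458.7 (rank 445) lay 288 bp further downstream, beside the tRNA gene F22F1.t3, which is 290 bp from the IDR summit and has an IDR summit of its own. A weaker replicate 3 peak of 22.88 (rank 1328) lay upstream of mir-237, 154 bp from it. Of the replicate lists, that of replicate 1 alone therefore held the summit that made mir-237 bound. MiRNA mir-237 shares its seed with lin-4, the founding heterochronic miRNA, which was unbound with its nearest IDR summit 57325 bp away.
mir-237: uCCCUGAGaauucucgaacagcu
lin-4: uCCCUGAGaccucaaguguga

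Among the miRNA families listed, the mir-51 family had the most bound genes, 5 of 6, against 5.16% of all nuclear genes. The 5 genes rest on 4 distinct peaks, and no test of the share was made. Its members act in embryonic development and share the seed ACCCGUA, which was found in no other annotated mature miRNA. The seed lies in the 5′ arm of mir-51, mir-52 and mir-53 and in the 3′ arm of mir-54, mir-55 and mir-56. The 6 mature sequences are given because they show what these genes share although they lie at 3 separate places, on chromosomes IV and X.
mir-51: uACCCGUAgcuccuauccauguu
mir-52: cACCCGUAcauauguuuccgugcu
mir-53: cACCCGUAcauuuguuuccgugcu
mir-54: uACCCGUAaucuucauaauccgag
mir-55: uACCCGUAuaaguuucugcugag
mir-56: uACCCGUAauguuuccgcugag

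The peak at mir-51 (IV, 11026013 to 11026112, minus strand) was the strongest of the family, with a signal of 260.7 (rank 889). Replicate 1 gave 217.9 (rank 857) and replicate 3 gave 73.05 (rank 843). Its summit lay 42 bp upstream of the gene, within the annotated ncRNA gene F36H1.17 on the same strand, and on the exact B-box match shown above. No A-box match stood before that B-box at a spacing of 20 to 100 bases. The same search found such a pair at only 303 of 612 tRNA genes (49.5%). The neighbour mir-53 (IV, 11027593 to 11027691, minus strand) had a peak of its own, 104 bp upstream, of signal 158.3 (rank 1008). It ranked 972 in replicate 1 and 1380 in replicate 3. These 2 genes thus had peaks in the top 1860 of both samples' lists. At mir-53 both replicate summits lay upstream. At mir-51 the replicate 1 summit lay upstream, but the replicate 3 summit lay inside the gene, 124 bp from the IDR summit.

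The gene mir-52 (IV, 14034008 to 14034107, plus strand), further along the chromosome, was bound through a summit 233 bp upstream with a signal of 113.8 (rank 1126). It ranked 1003 in replicate 1 and 1935 in replicate 3, and 2 annotated ncRNA genes, on opposite strands, span the summit. The weakest family peak, of signal 58.95 (rank 1710), lay in an intron of F09A5.3, 105 bp downstream of mir-56 (X, 13144691 to 13144787, minus strand) and 241 bp downstream of mir-55 (X, 13144827 to 13144924, minus strand). It was also within the limit of F09A5.15 (X, 13144830 to 13144919, plus strand), an miRNA gene on the other strand of mir-55, at 244 bp. Replicate 1 had this peak at 46.43 (rank 1692). In replicate 3 the matching summit, of 17.71 (rank 1952), lay 221 bp from the IDR summit and over 250 bp from all 3 miRNA genes. The unbound member mir-54 (X, 13144996 to 13145094, minus strand) had an IDR summit 315 bp upstream, with a signal of 161.6 (rank 1004), higher than the one that made mir-55 and mir-56 bound. The difference between mir-54 and its neighbours is therefore one of distance under the 250 bp limit.

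**Figure D2:**
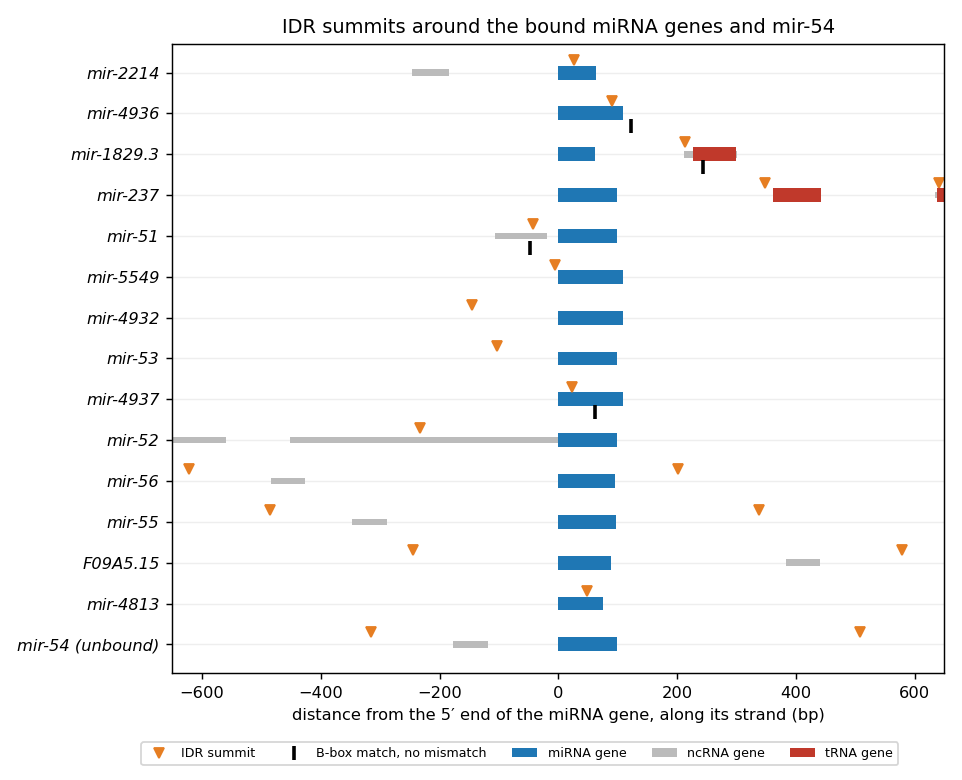
Position of IDR summits (triangles), miRNA genes (blue), tRNA genes (red), other ncRNA genes (grey) and exact B-box matches (black ticks) around the 14 bound miRNA genes and mir-54, in bp from the 5′ end of each miRNA gene along its strand. Summits lie inside 4 genes, upstream of 6 and downstream of 4, and those at mir-1829.3 and mir-237 lie beside a tRNA gene.

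The remaining apart genes were mir-5549, mir-4932 and mir-4813, with protein-coding sequence at or beside the summit. The summit at mir-5549 (III, 6971976 to 6972085, minus strand) lay 5 bp upstream of it and also 163 bp upstream of the 5′ end of rfc-4, a subunit of replication factor C, and 378 bp upstream of eef-1A.1, a translation elongation factor. Its signal was 173 (rank 984), with ranks of 1025 in replicate 1 and 973 in replicate 3. The summit for mir-4932 (I, 9512307 to 9512416, plus strand) lay 145 bp upstream, in an exon of smn-1, the survival of motor neuron orthologue, and 290 bp upstream of the kinesin gene klp-16. It had a signal of 167 (rank 994) and ranked 962 in replicate 1 and 1069 in replicate 3. Thus 2 of the 14 genes were bound through a summit in a protein-coding promoter, from 500 bp upstream to 250 bp downstream of a 5′ end, and which gene each peak belongs to was not tested.

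The weakest bound gene was mir-4813 (III, 4571640 to 4571716, plus strand), whose 77 bases all lie in exons of idhg-1, an isocitrate dehydrogenase subunit, on the same strand. Its signal was 56.28 (rank 1794), with the summit inside the gene. Replicate 1 had 37.48 (rank 2079) and the list of replicate 3 had no summit within 250 bp. By host context, 8 of 155 miRNA genes outside protein-coding genes were bound (5.16%), 4 of 73 inside such a gene on its strand (5.48%) and 2 of 32 on the opposite strand (6.25%), all near the 5.16% of all nuclear genes.

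The bound genes were compared between the samples by rank, since the lists have separate scales. Of the 14, 12 had a summit within 250 bp of their IDR summit in both replicate lists, and mir-237 and mir-4813 had none in replicate 3. Measured from the gene itself, all 14 had a replicate 1 summit within 250 bp and 10 had one in each list (71.4%). Over all 260 miRNA genes 44 had a summit in both lists (16.9%), against 20.5% of all nuclear genes. In the top 1860 peaks, the length of the IDR list, 13 of the 14 were found in replicate 1, 9 in replicate 3 and 9 in both. Of these 9, mir-237 was found in replicate 3 through its upstream peak of 22.88, which lies 502 bp from the IDR summit. The IDR list was made from these same samples, so these counts describe it and are not a separate check.

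**Figure D3:**
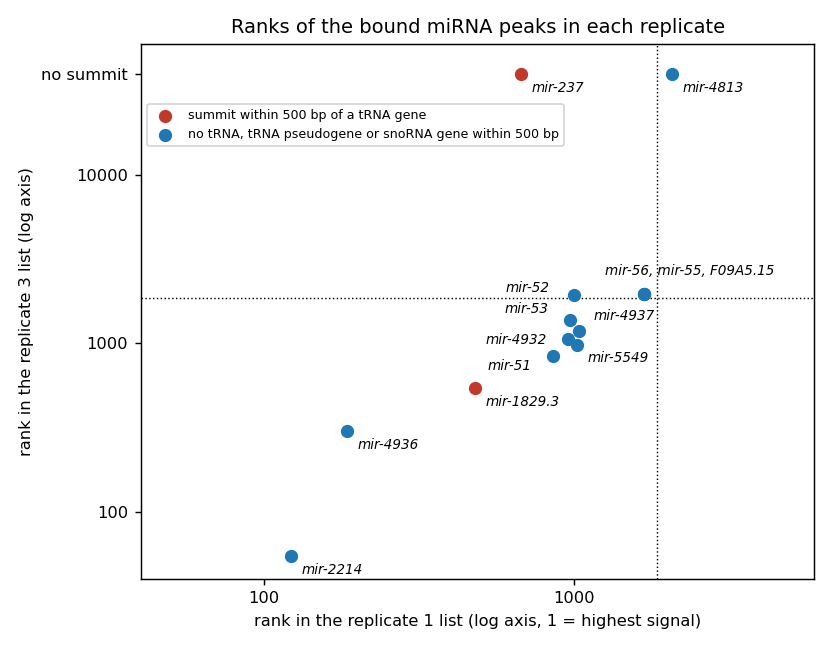
Rank of the peak matched to each bound gene's IDR summit in the list of replicate 1 (horizontal) and of replicate 3 (vertical), both on log axes, with red for near and blue for apart genes. Dotted lines mark rank 1860; mir-2214 lies lowest on both axes at ranks 122 and 55, and mir-237 and mir-4813 have no replicate 3 summit within 250 bp.

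The 246 unbound miRNA genes had weak signals or none in the pooled list. In the pooled list 83 of all 260 miRNA genes had a summit within 250 bp (31.9%; interval 26.3 to 38.0%), close to the background of 30.7%. Of the unbound genes 69 had such a summit, with signals of 9.172 to 49.09 and a median of 21.51, and 177 had none. The highest of these signals were 49.09 at mir-8207, 47.39 at mir-75, 43.96 at mir-4812, 43.46 at mir-8196.1 and 42.85 at mir-238, all at ranks from 2099 to 2448. They were followed by mir-4929, mir-73, mir-5595, mir-239.2 and mir-1829.2, down to 39.36. The threshold of the IDR list fell between 56.28 at mir-4813 and 49.09 at mir-8207, so the call separates neighbours in a continuous run of values.

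**Figure D4:**
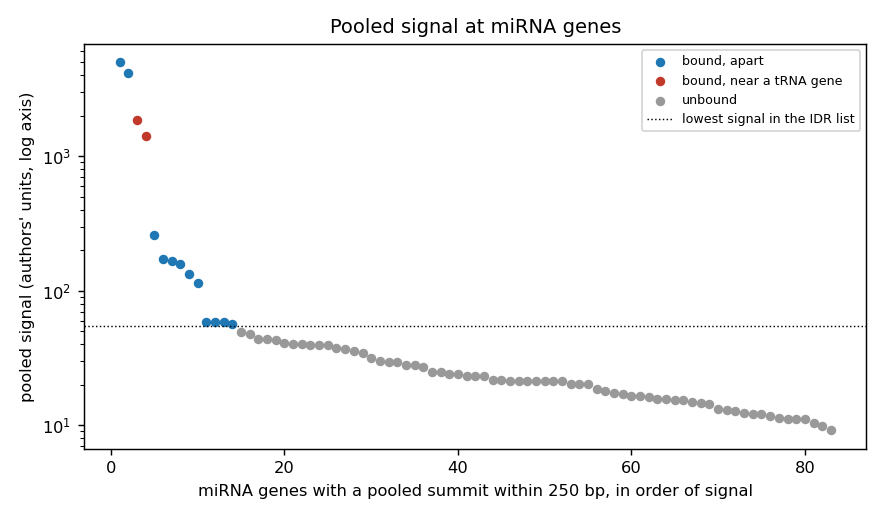
Pooled signal (log axis, authors' units) of the strongest summit within 250 bp for the 83 miRNA genes that had one, in order of signal, with apart genes in blue, near genes in red and unbound genes in grey. The values run without a wide gap from 56.28 down to 9.172, while 4 genes stand above 1000.

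Distance set the call for some genes. The bound genes closest to the limit were mir-237 at 250 bp, F09A5.15 at 244 bp, mir-55 at 241 bp and mir-52 at 233 bp. Just outside it were mir-1819 at 303 bp, mir-90 at 310 bp, mir-54 at 315 bp and mir-58.1 at 390 bp. The summit nearest to mir-1819 lay inside the tRNA gene R11.t4 and had a signal of 2913, while those nearest to mir-90 and mir-58.1 had 54.67 and 57.43. In all, 7 genes had their nearest summit more than 250 and up to 500 bp away. Over the 260 miRNA genes the nearest IDR summit lay at a median of 13964 bp, with quartiles of 4127 and 34377 bp.

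Several well studied worm miRNA genes were unbound, in families so small that the background share of 5.16% also gives few or no bound genes. None of the 7 let-7 family genes was bound. The gene let-7 itself (X, 14743590 to 14745321, minus strand) times the larval to adult switch. It had its nearest IDR summit 16216 bp away and a pooled signal of 15.35. None of the 8 genes of the mir-35 family, which act in the embryo, was bound. The samples were young adults, and whether they held embryos was not examined. None of the 4 listed genes of the abundant mir-58 family was bound. The annotated gene mir-58.2, not on that list, shares the seed GAGAUCA with mir-80, mir-81 and mir-82 and was also unbound. In the mir-58 family, mir-58.1 and mir-80 had IDR summits 390 and 483 bp away, and those nearest to mir-81 and mir-82 lay 48637 and 52823 bp away. At mir-80 replicate 3 had a summit 119 bp away at rank 1097, and replicate 1 had one 27 bp away at rank 9346. The neuronal genes lsy-6 and mir-124, the muscle gene mir-1, and mir-71 and mir-34, which act in ageing and stress, were all unbound. The nearest summits lay 1196 bp from mir-71 and 1372 bp from mir-34.

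The B-box letters were then searched on all chromosomes in each miRNA gene with 250 bp on either side, on both strands, with at most 1 mismatch. They occurred at 4 of the 14 bound genes (28.6%), 3 of the 12 apart and 1 of the 2 near, and at 16 of all 260 miRNA genes (6.15%). The same search found 541 of 612 tRNA genes (88.4%), the class from which the letters were taken, and 58 of 346 snoRNA genes (16.8%). Without a mismatch the counts were 4 of the 14 bound genes, 6 of the 260 miRNA genes (2.31%) and 407 tRNA genes (66.5%). The 2 unbound genes with an exact match were mir-4806 and mir-1819. The other 10 bound genes had no such match in this window.

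An A-box before a B-box, with 20 to 100 bases between and at most 1 mismatch in each, was searched after the B-box matches had been seen. It occurred at 2 of the 12 apart genes, mir-4936 and mir-4937, at neither near gene, and at 6 of the 246 unbound genes (2.44%). In 303 of 612 tRNA genes with the same flanks (49.5%) it was also present. Spacing was summarised for 267 tRNA genes, fewer than the 303 with a pair. The 31 bases at mir-4936 and mir-4937 equalled their lowest value and lower quartile. Their median was 32 bases, and 64.8% of the 267 had 31 or 32. The match is a description of letters and shows no binding of TFIIIC.

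Of the 6 unbound genes with both boxes, mir-1829.1, mir-1829.2 and mir-4812 are relatives of the bound mir-1829.3. Each has the pair 32 bases apart on the strand of the gene, ending 37 or 38 bp upstream of it, and mir-1829.3 has a B-box with 1 mismatch at the corresponding place but no A-box match. The stretches are shown because they resemble one another, at X:14977027-14977081 on the plus strand, X:15242887-15242941 on the minus strand and X:15588407-15588461 on the minus strand, with both boxes in capitals.
mir-1829.2: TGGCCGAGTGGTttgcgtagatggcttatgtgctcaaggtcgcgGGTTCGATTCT
mir-4812: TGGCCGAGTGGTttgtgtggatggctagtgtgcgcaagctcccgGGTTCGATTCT
mir-1829.1: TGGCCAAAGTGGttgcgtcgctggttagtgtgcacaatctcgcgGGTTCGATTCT

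These 3 genes had weak pooled signals of 39.36 (rank 2736) at mir-1829.2, 43.96 (rank 2364) at mir-4812 and 37.16 (rank 3005) at mir-1829.1. Replicate 3 placed mir-1829.1 at rank 1367, inside its top 1860, whereas replicate 1 placed it at rank 3798. The other 3 genes with both boxes were mir-4806 with a pooled signal of 17.14, mir-4814 with 23.98 and mir-8189 with no pooled summit within 250 bp. All 6 were therefore below the lowest IDR signal, although mir-4806 has 2 A-box matches without a mismatch, 1 on each strand, at the same spacing of 31 bases as mir-4937. The mature 3′ arms of mir-1829.3, mir-1829.2 and mir-4812 share the seed AACCACU.
mir-1829.3: cAACCACUggaauuucucuauu
mir-1829.2: cAACCACUggaauuucucuauu
mir-4812: cAACCACUgcaauuucucuau

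The proteins that make and use miRNAs were examined for RPC-1 at their promoters. None of 16 listed genes had an IDR summit there, against 2.97% of protein-coding genes (593 of 19971). They included the Drosha gene drsh-1 and its partner pash-1, the Dicer gene dcr-1, the Argonaute genes alg-1, alg-2 and alg-5, and the targets lin-28, lin-41 and hbl-1. In the gene body with 250 bp on either side, ain-1, a GW182-type silencing protein, had a peak of 2430 and lin-28, an RNA-binding protein that blocks let-7, had one of 71.04, so 2 of the 16 were bound by the rule used for the miRNA genes, against 5.26% of protein-coding genes (1050 of 19971). The nearest summit to the 5′ end lay 817 bp away for ain-1, 863 bp for lin-28 and 860 bp for nhl-2. The one nearest to ain-1 had a signal of 60.83 and was not its peak of 2430. For a list of 16 genes, a share of 2.97% gives few or no genes, so the count of 0 does not set it apart.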

How the data were processed

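RPC-1 ChIP-seq was analysed from the peak lists the authors deposited on ce11: 1 for each of the 2 samples, 1 pooled and 1 IDR list, per the file headers. In these deposited lists the signal is the authors' value per peak, and −log10 q-values accompany it. For the aligner and the caller, no name is given in the sources used here. Summits were matched to RefSeq WBcel235 genes, whose mature sequences and promoter letters were read from that genome. RefSeq arms follow the annotation, and 2 family names, mir-58 and mir-1834, are not annotated symbols. The annotated mir-58.2 was not on the family list. Calculations used Python 3.11.15, NumPy 2.4.6, SciPy 1.17.1 and matplotlib 3.10.9. Counting was tested on planted peaks. With 1 group, no comparison between groups and no p-value was computed, and whether the samples share cultures is not stated. Genes named were all bound miRNA genes, those beside the 250 bp limit, the 10 strongest unbound ones, listed families and 16 pathway genes; the pairs of A-box and B-box were added. Members, lists and families were chosen with earlier results of these data known. Alternatives changed distances, lists, merging and motif settings. Genes on chromosome I were searched and compared like the others, but their sequences are not shown.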

Additional observations from a re-analysis of the deposited data

How the results depend on the processing

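The 14 bound genes, 2 near and 12 apart, depended most on the distance and list. At 0, 100, 500 and 1000 bp 4, 6, 21 and 28 genes were bound, with 0, 0, 4 and 6 near and 4, 6, 17 and 22 apart; the apart median was 2128 at 0 bp and the near median 2913 at 1000 bp. Keeping the IDR peaks above the median signal left 5 genes, 3 apart with a median of 4123. Peak intervals overlapped 8 genes, 1 near and 7 apart. Counting all other RNA classes made 5 near, and requiring summits in both replicate lists left 1 near, an alternative chosen after seeing the data. Without one or the other replicate (the top 1860 peaks of the remaining list), 14 to 19 genes were bound, 2 near (mir-77 in place of mir-237 without replicate 1) and 12 to 17 apart, with near medians of 184.6 to 1161 and apart medians of 27.78 to 113, on the scale of each list. Without replicate 3, 13 of the 14 genes stayed bound; without replicate 1, 9 did (mir-237 through another, upstream peak), and mir-52, mir-55, mir-56, F09A5.15 and mir-4813 did not. Summits within 100 bp in both lists were found at 6 of the bound genes. Pathway genes with a peak numbered 2 of 16 when the body was searched, against 5.26% of protein-coding genes. B-box matches fell to 6 miRNA genes without a mismatch and to 1 in gene bodies alone. Of 79 alternative values, 53 stayed within the limits set for them, which concern the size of a value and not which genes were bound. No paired analysis was possible because there is 1 group. The unknown depth and the whole-animal samples limit what an absent peak shows.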
